A study of Arabidopsis thaliana with 8 samples.

Results

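UPM1 (AT5G40850), SIRB (AT1G50170) and SIR (AT5G04590) of Arabidopsis thaliana make or use siroheme, and their transcripts were followed in roots and shoots supplied with nitrate for 20 min. The 3 genes were taken by probe set from 22746 probe sets of the ATH1 array, with 1 probe set each, written here as the array and its probe set: ATH1.249325_at for UPM1, ATH1.262417_at for SIRB and ATH1.250846_at for SIR. The annotation table of the array's probes names SIRB and SIR. That table lists no gene for the UPM1 probe set, and its identity as UPM1 was given with the gene set. All samples were wild-type Col-0, the common laboratory accession, grown for 10 days in liquid culture under constant light, with many seedlings to a beaker. The 4 groups were roots in nitrate (250 µM potassium nitrate), roots in KCl (250 µM potassium chloride, the control), shoots in nitrate and shoots in KCl. Each held 2 samples, hybridised to 1 array each.

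Siroheme is an iron-containing tetrapyrrole made in plastids. It branches off the pathway to heme and chlorophyll at uroporphyrinogen III, which UPM1, a methyltransferase, converts to precorrin-2. After an oxidation to sirohydrochlorin, SIRB, a ferrochelatase, inserts iron and completes the cofactor. Only a few plant enzymes are known to carry siroheme: nitrite reductase, which makes ammonium from the nitrite left by nitrate reductase, and sulfite reductase, encoded by SIR, which makes sulfide for cysteine synthesis. Both work in plastids with electrons from ferredoxin. The comparisons therefore set the first and the last enzyme of the branch, and the enzyme of the sulfur pathway that uses the cofactor, beside each other under nitrate.

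The number of arrays limits the precision, and nothing in the labels shows that samples of 1 group were grown apart, so p-values cover only the spread between samples that may be technical repeats. Array medians ran from 42.3 to 49.9. Shoot arrays differed more within a group than root arrays: the log2 difference between the 2 arrays had an SD over 13647 tested probe sets of 0.47 in nitrate and 0.50 in KCl in shoots, against 0.29 and 0.30 in roots. ICL, isocitrate lyase of the glyoxylate cycle, was higher on the array numbered 1 than on that numbered 2 in all 4 groups. Its signals were 237 and 83.8 in root nitrate, 462 and 59.9 in root KCl, 2572 and 111 in shoot nitrate, and 3049 and 63.2 in shoot KCl. ICL was named outside the rule for naming genes, and its difference is not typical of the arrays. Of the organ markers, RCA (Rubisco activase of green tissue) ran from 108 to 171 in roots and from 2492 to 4194 in shoots, and EXPA7 and EXPA18 (root hair expansins) together from 363 to 460 in roots and from 27.5 to 43.7 in shoots. The third root marker measured, PYK10, encodes a beta-glucosidase and overlapped between the organs, and the table lists no probe set for the other 10 of the 14 markers.

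UPM1 had high signal wherever nitrate was supplied. In roots its signals were 1641 and 1581 in nitrate, against 111 and 92.6 in KCl. In shoots they were 791 and 658 in nitrate, against 38.8 and 69.1 in KCl. Nitrate and KCl arrays were far apart in both organs, and the nitrate arrays of roots also lay above those of shoots. The mean signal was 1611 ± 42.8 in root nitrate and 102 ± 12.7 in root KCl (SD, n = 2 each), a ratio of 15.9, and 724 ± 94.1 in shoot nitrate and 54.0 ± 21.4 in shoot KCl (SD, n = 2 each), a ratio of 13.4. All 8 values lay above 33.3, the mean signal a probe set had to exceed to be tested, but the lowest, in shoot KCl, was close to it.

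**Figure D1:**
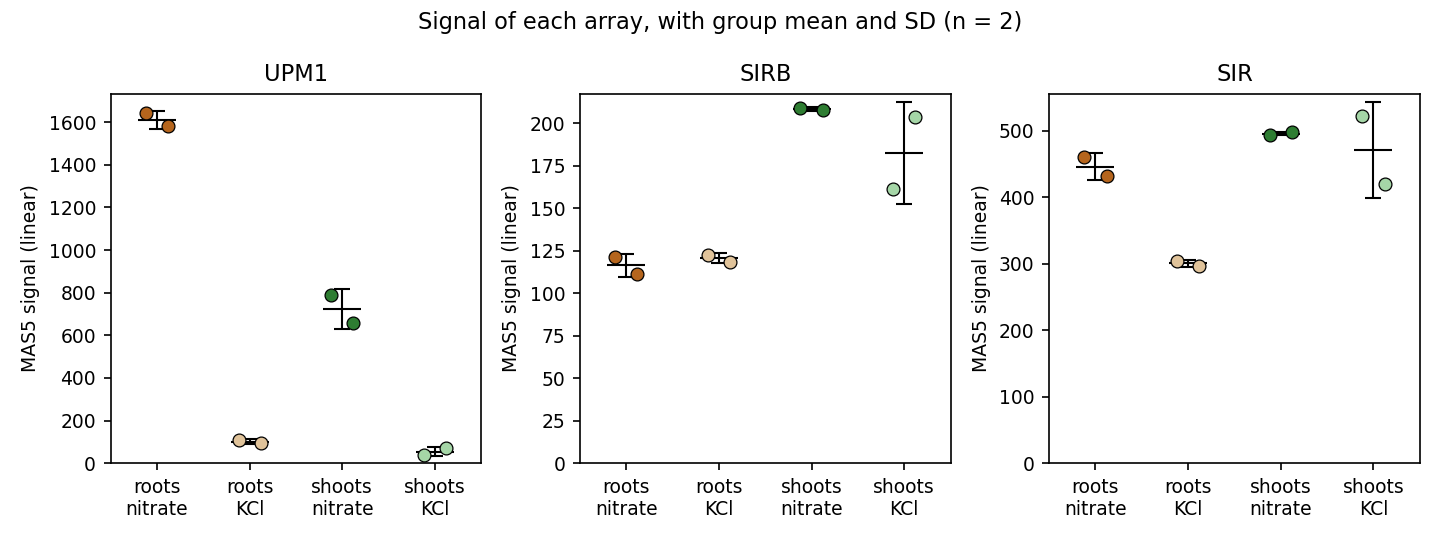
MAS5 signal on a linear scale starting at 0 (y axis) in each of the 4 groups (x axis) for UPM1, SIRB and SIR, each on its own scale. Points are single arrays, dashes the group means and bars the SD (n = 2); UPM1 lies between 658 and 1641 in nitrate and between 38.8 and 111 in KCl.

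On the log2(signal + 16) scale, which understates changes of transcripts of low signal, UPM1 rose in roots by 3.79 ± 0.23 (SE; limma across all tested probe sets, Benjamini-Hochberg adjusted p = 0.000278) with a 95% confidence interval of 3.28 to 4.31. In shoots it rose by 3.43 ± 0.23 (SE; limma, adjusted p = 0.00157), with an interval of 2.91 to 3.95. The background was 1.14% of tested probe sets called in roots and 0.0953% in shoots (adjusted p under 0.05). UPM1 ranked 7 of 13647 by the size of its rise in roots and 4 of 13647 in shoots. It was also 1 of 13 probe sets called in both organs. The 3 genes were chosen with earlier results of these data known, so these ranks of UPM1 are a description. Set against the KCl array of the same number, the 2 shoot nitrate arrays gave log2 differences of 3.88 and 2.98 and the 2 root nitrate arrays 3.71 and 3.88. The call in shoots used the spread of all 8 arrays. Fitted on the 4 shoot arrays alone, the change was the same and limma's adjusted p was 0.0788.

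The response of UPM1 in roots minus that in shoots was 0.36 ± 0.32 (SE; limma, adjusted p = 0.9998, unadjusted p = 0.289), on the log2 scale. Its 95% confidence interval, from -0.37 to 1.09, spans a root response 2.14 times that of shoots and one 0.774 times it. The difference between organs was thus not resolved with 2 arrays a group.

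**Figure D2:**
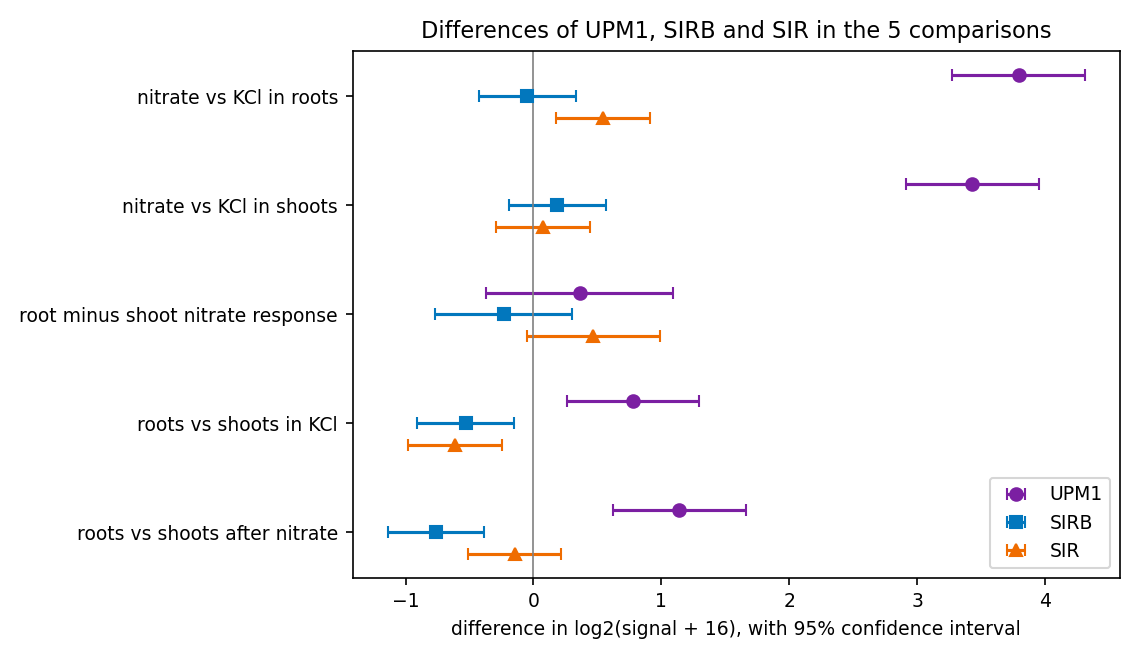
Difference in log2(signal + 16) (x axis) for UPM1, SIRB and SIR in the 5 comparisons (y axis), first-named minus second-named group, with 95% confidence intervals from limma. UPM1 stands at 3.79 and 3.43 for nitrate, where the intervals of SIRB include 0 in both organs and that of SIR in shoots.

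UPM1 also differed between the organs themselves. After nitrate its log2 signal was higher in roots than in shoots by 1.14 ± 0.23 (SE; limma, adjusted p = 0.00401), and in KCl by 0.78 ± 0.23 (adjusted p = 0.0255), where 38.2% and 37.8% of tested probe sets were called. In whole organs, fewer expressing cells and less transcript per cell cannot be told apart. The order of the 4 groups was therefore root nitrate, shoot nitrate, root KCl and shoot KCl, and neighbours in this order did not overlap. The share of all tested probe sets with such a separation was not counted, so it is not shown to be unusual. The least separated neighbours were root KCl (111 and 92.6) and shoot KCl (38.8 and 69.1). That KCl difference missed the threshold (limma) without the first root KCl array (log2 difference 0.67, adjusted p = 0.149), the second root KCl array (0.89, 0.0639) or the first shoot KCl array (0.46, 0.123), and with only the KCl arrays in the fit (adjusted p = 0.0573).

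SIRB, which completes siroheme, did not pass the test with nitrate in either organ. Its signals in roots were 121 and 112 in nitrate, against 123 and 119 in KCl. In shoots they were 209 and 208 in nitrate, against 161 and 204 in KCl. Root arrays overlapped between treatments. The shoot nitrate arrays lay just above the higher KCl array, an arrangement found in 8.91% of tested probe sets, and the spread there came from the first KCl array. The log2 change was -0.05 ± 0.17 in roots (SE; limma, adjusted p = 0.9999), with a 95% confidence interval equal to a fold of 0.744 to 1.26. In shoots it was 0.19 ± 0.17 (adjusted p = 0.9999), with a fold of 0.874 to 1.48. A change of SIRB in roots of more than 1.34-fold downwards lies outside that interval, as does a rise in shoots near that of UPM1. The response in roots minus that in shoots was -0.23 ± 0.23 (limma, adjusted p = 0.9998, unadjusted p = 0.349).

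Across organs SIRB ran opposite to UPM1. Its mean signal was 116 ± 6.82 in root nitrate against 208 ± 1.03 in shoot nitrate, and 121 ± 2.94 in root KCl against 183 ± 29.9 in shoot KCl (SD, n = 2 each). Roots were lower than shoots, with log2 differences of -0.76 ± 0.17 after nitrate (SE; limma, adjusted p = 0.00642) and of -0.53 ± 0.17 in KCl (adjusted p = 0.0343). Of all tested probe sets, 19.6% were called lower in roots after nitrate and 19.2% in KCl, and 18.6% were called higher in each. In the order shoot nitrate, shoot KCl, root KCl and root nitrate, only shoot KCl and root KCl stood clearly apart among neighbours. How many of all tested probe sets separate these groups in the same way was not counted. The call in KCl was lost (limma) without the first root KCl array (log2 difference -0.55, adjusted p = 0.121), the second root KCl array (-0.51, 0.147), the first root nitrate array (-0.53, 0.063), the second root nitrate array (-0.53, 0.0625) or the second shoot KCl array (-0.38, 0.155), and with only the KCl arrays in the fit (adjusted p = 0.0806). After nitrate it was lost only without the second root nitrate array (-0.71, adjusted p = 0.055).

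SIR was measured as the sulfite reductase that carries the cofactor. In roots its signals were 460 and 432 in nitrate, against 304 and 297 in KCl. In shoots they were 494 and 498 in nitrate, against 523 and 421 in KCl. Root nitrate arrays lay above root KCl arrays, as in 13.2% of tested probe sets, and shoot arrays overlapped. The mean in roots was 446 ± 20.0 in nitrate and 301 ± 4.94 in KCl (SD, n = 2 each), a ratio of 1.48. The root log2 change of 0.55 ± 0.16 (SE) did not pass over all probe sets (limma, adjusted p = 0.337, unadjusted p = 0.00872), and 769 of 13647 probe sets had an unadjusted p under 0.05. This call turned on how replicate numbers entered the fit. With the number as a block within each organ SIR passed (limma, adjusted p = 0.0264), as did 517 probe sets in all, and it did not where the block ran across the organs (adjusted p = 0.109). Its 95% confidence interval, a fold of 1.13 to 1.88, lies below that of UPM1 in roots, a fold of 9.69 to 19.9. The shoot change was 0.08 ± 0.16 (limma, adjusted p = 0.9999), a fold of 0.818 to 1.36, and the response in roots minus that in shoots was 0.47 ± 0.23 (adjusted p = 0.9998, unadjusted p = 0.0713). None of the 3 genes was called for this difference by limma, none had an unadjusted p under 0.05, and 0.0147% of tested probe sets were called.

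Between the organs SIR was lower in roots than in shoots in KCl, with a log2 difference of -0.62 ± 0.16 (SE; limma, adjusted p = 0.0157) and means of 301 ± 4.94 in roots and 472 ± 72.2 in shoots (SD, n = 2 each). In KCl 19.2% of all tested probe sets were called lower in roots. After nitrate the SIR difference was -0.15 ± 0.16 (limma, adjusted p = 0.522), with means of 446 ± 20.0 in roots and 496 ± 2.70 in shoots. That one difference passed and the other did not leaves the change between them untested here except by the difference of responses given above. The order was shoot nitrate, shoot KCl, root nitrate and root KCl. Only root KCl stood apart from its neighbour, root nitrate, since shoot KCl overlapped both shoot nitrate and root nitrate. The KCl call was lost (limma) without the first root KCl array (log2 difference -0.63, adjusted p = 0.0755), the second root KCl array (-0.60, 0.087) or the first shoot KCl array (-0.46, 0.0765).

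**Figure D3:**
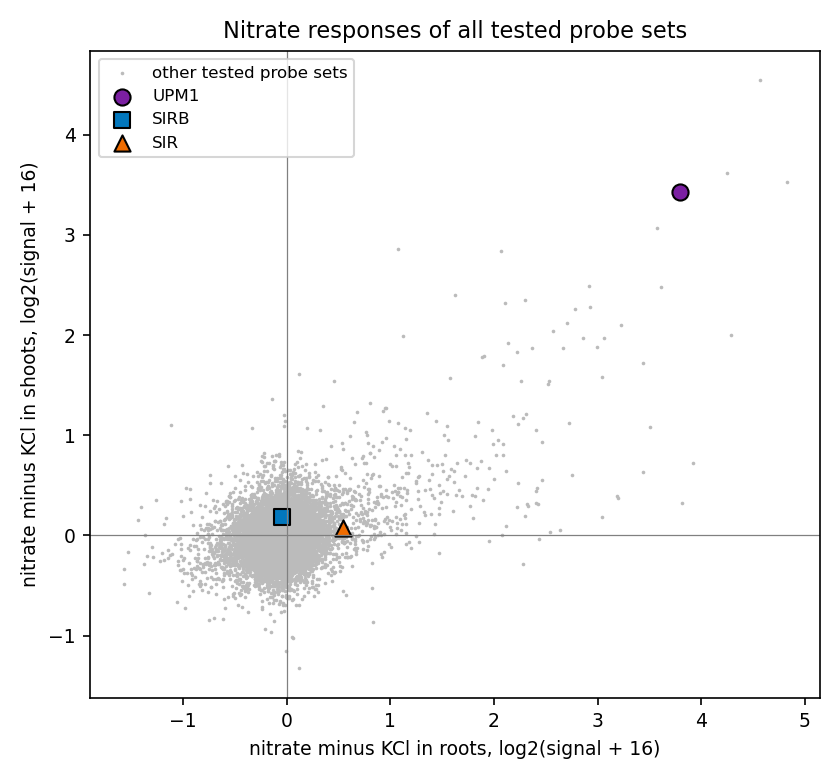
Nitrate minus KCl in roots (x axis) against nitrate minus KCl in shoots (y axis), both as differences in log2(signal + 16), for 13647 tested probe sets (grey) and the 3 genes. UPM1 lies far from the cloud at 3.79 and 3.43, SIRB near the origin at -0.05 and 0.19, and SIR at 0.55 and 0.08.

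The first and the last step of siroheme synthesis were compared by their changes, since the signals of different probe sets cannot be set against each other. Within each array the log2 value of SIRB was subtracted from that of UPM1. This difference was 3.59 and 3.65 in root nitrate, against -0.13 and -0.31 in root KCl, and 1.84 and 1.59 in shoot nitrate, against -1.69 and -1.37 in shoot KCl. Every nitrate array lay above every KCl array of both organs. Relative to SIRB, UPM1 was thus higher with nitrate by 3.84 in roots, by 3.25 in shoots and by 3.54 over both organs, on the log2 scale. An exact two-sided permutation test gave p = 0.333 in each organ, the smallest it can give with 2 arrays against 2. With treatments permuted within organs the exact test gave p = 0.0556, the smallest that 36 arrangements allow and above 0.05 by design (0.167 after Benjamini-Hochberg adjustment over the 3 tests). In the fit across all probe sets the 95% confidence intervals of the 2 genes did not overlap in roots (3.28 to 4.31 for UPM1 and -0.43 to 0.33 for SIRB) or in shoots (2.91 to 3.95 and -0.19 to 0.56).

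**Figure D4:**
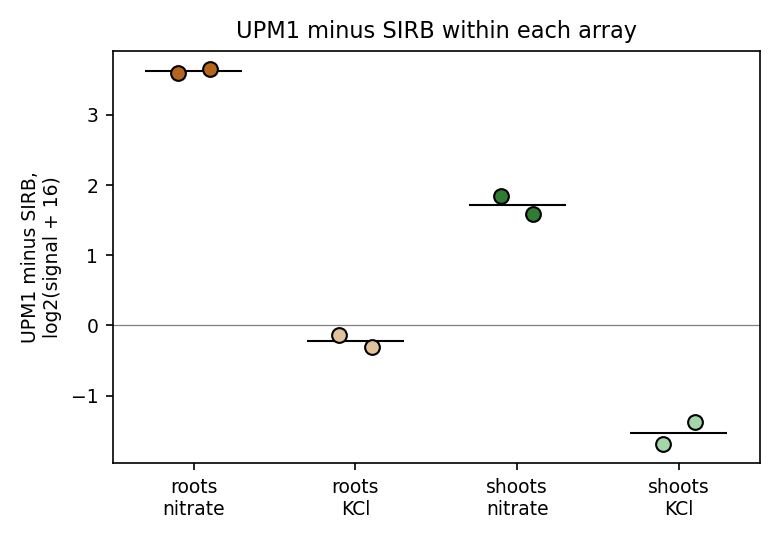
UPM1 minus SIRB in log2(signal + 16) within each array (y axis) for the 4 groups (x axis); points are arrays and lines group means, and the zero line has no meaning of its own because the probe sets differ. The nitrate arrays lie from 1.59 to 3.65 and the KCl arrays from -1.69 to -0.13.

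Other genes of the tetrapyrrole and sulfate pathways gave the surroundings of these changes. Few of them could be matched: of 82 genes in 8 lists, the probe table names 15, and with UPM1 16 had a probe set. Besides the 3 genes described above, 10 were tested. It lists none for nitrite reductase (NIR1), the ferredoxins and their reductases, the sulfate transporters or the enzymes of cysteine synthesis, which were not analysed here. None of the 10 was called with nitrate by limma in roots, where 1.14% of all tested probe sets were, or in shoots (0.0953%), and none had an unadjusted p under 0.05 in either organ. The median of their log2 changes stood at -0.08 for roots and 0.01 for shoots, beside -0.03 and -0.01 over all tested probe sets.

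Upstream of the branch point, 3 genes of the common trunk were tested. HEMA2, a glutamyl-tRNA reductase at the entry of the pathway, had a log2 change in roots of 0.03 ± 0.22, and HEMB1, which makes porphobilinogen, one of 0.02 ± 0.16 (SE). HEMB1 had signals of 150 and 147 in root nitrate, against 142 and 149 in root KCl, so its root arrays overlapped. In shoots its nitrate arrays (400 and 498) lay above its KCl arrays (341 and 369), as in 8.91% of tested probe sets. The log2 change of HEMB1 there was 0.32 ± 0.16 (SE). On the competing route from uroporphyrinogen III, the decarboxylase genes HEME1 and HEME2 had log2 changes of -0.31 ± 0.23 and -0.17 ± 0.23 in roots. HEME1 had signals of 42.8 and 48.1 in root nitrate, against 61.6 and 58.6 in root KCl. In the chlorophyll branch CHLM, a methyltransferase, had -0.28 ± 0.18 and CHLI2, a magnesium chelatase subunit, -0.17 ± 0.23. CHLM had signals of 53.7 and 60.8 in root nitrate, against 74.9 and 71.3 in root KCl. The nitrate arrays of HEME1 and CHLM thus lay below their KCl arrays in roots, as in 21.9% of tested probe sets. In shoots CHLM had a log2 change of 0.28 ± 0.18 (SE), with overlapping arrays. CHLI2 passed the filter through shoots and had signals of at most 4.98 in roots.

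Before sulfite reductase in sulfate assimilation, ATP sulfurylase activates sulfate. ATPS4 had a log2 change in roots of 0.05 ± 0.20, with signals of 1656 and 1649 in nitrate, against 1592 and 1608 in KCl. ATPS3 had 0.05 ± 0.28 (SE). Neither passed.

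Of the same 10 genes all but HEMA2 differed between the organs (limma, adjusted p = 0.455 in KCl and 0.249 after nitrate for HEMA2). In KCl 8 were lower and 1 higher in roots than in shoots, where 19.2% of all tested probe sets were lower and 18.6% higher, and after nitrate the counts were again 8 and 1 (19.6% and 18.6%). CHLI2 was 1 of the 8 each time, and since it passed the filter only through shoots, its side was fixed by the filter. With the filter at the 60th percentile, where it was not tested, 7 of 9 were lower and 1 higher in both conditions. The filter takes the mean over all 8 arrays, so at any percentile a gene of low root signal can pass through shoots. HEME1, HEME2 and PORB had signals of at most 61.6 in roots, so this second count may not be free of the filter either. PORB, a protochlorophyllide reductase, was lower in roots, with a log2 difference of -4.45 ± 0.19 in KCl (SE; limma, adjusted p = 3.02e-06), and the 1 gene higher in roots was ATPS4, by 1.36 ± 0.20 (adjusted p = 0.000709). Both were named after their values were seen.

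**Figure D5:**
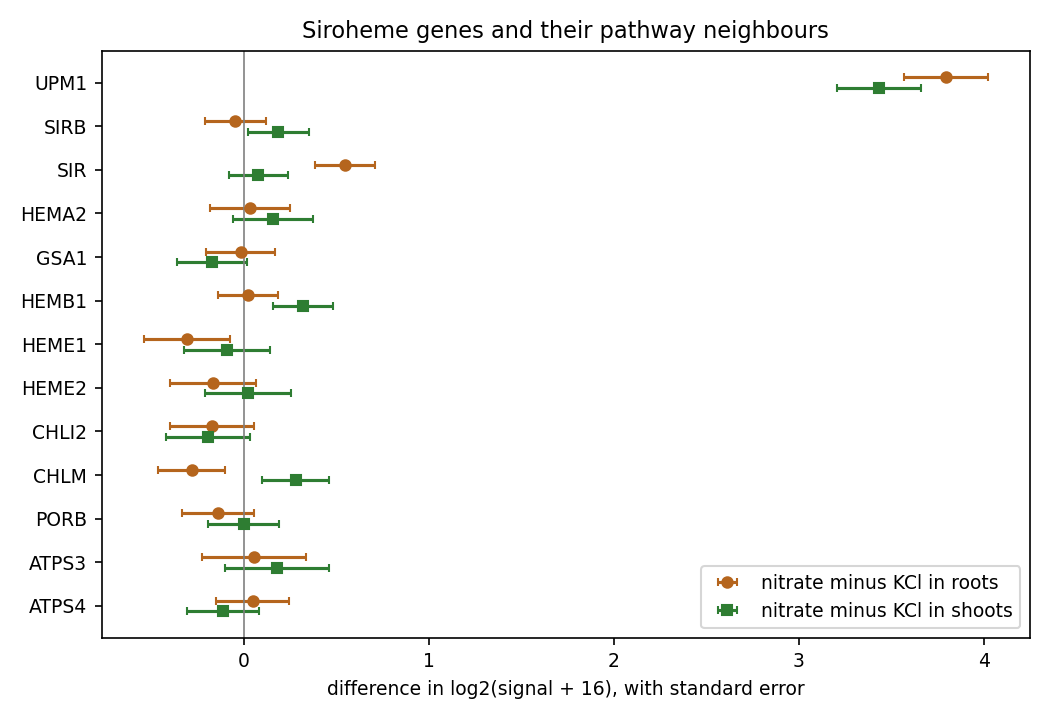
Nitrate minus KCl in log2(signal + 16) (x axis) in roots and shoots for UPM1, SIRB, SIR and the 10 other tested genes of the pathways (y axis), with standard errors from limma. The 10 others lie between -0.31 and 0.32 in both organs.

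Genes whose signals followed each of the 3 closely were found by the Pearson correlation over the 8 arrays, among tested probe sets matching 1 gene. These were 7253 of 13647, and of the 13 probe sets called with nitrate in both organs 5 matched 1 gene. Closer probe sets may thus stand among those left out. The 8 arrays come from 4 groups and share organ and treatment, so these values are a description. For UPM1 the 5 highest were AT5G41670 (PGD3, a 6-phosphogluconate dehydrogenase; r = 0.993), AT1G68670 (HHO2, a GARP transcription factor; 0.989), AT1G25550 (HHO3, of the same family; 0.989), AT4G36010 (0.986) and AT5G54130 (0.982). AT5G41670 had mean signals of 1903 in root nitrate and 238 in root KCl, and of 828 in shoot nitrate and 133 in shoot KCl. It thus had the same order of groups as UPM1, with smaller ratios between treatments.

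For SIRB the 5 were AT2G28605 (0.992), AT1G28140 (0.990), AT3G21360 (0.989), AT4G10000 (0.989) and AT3G56460 (0.989). AT2G28605 (root means of 18.3 in nitrate and 21.4 in KCl) and AT3G21360 (25.6 and 26.2) lay below the filter of 33.3 in roots. They passed it only through shoots, so their side between the organs was fixed by the filter. The root nitrate mean of AT4G10000, 30.2, was also below 33.3. AT1G28140 had mean signals of 118 in root nitrate and 138 in root KCl, and of 366 in shoot nitrate and 306 in shoot KCl, the same order of groups as SIRB. For SIR the 5 were AT3G19000 (0.977), AT5G01740 (0.963), AT1G61740 (0.959), AT5G62720 (0.940) and AT3G27180 (0.939). A correlation does not take account of the size of a change. With nitrate in roots AT5G01740 (log2 change 2.54), AT1G61740 (1.61) and AT5G62720 (1.88) passed the limma test. AT3G19000 (0.69) and AT3G27180 (0.29) did not, nor did SIR (0.55). In root KCl AT5G01740 (15.3) and AT5G62720 (3.61) had mean signals below the filter. AT3G19000 had mean signals of 167 in root nitrate and 97.2 in root KCl, and of 181 in shoot nitrate and 184 in shoot KCl, so root KCl alone stood low. Among the 3 genes themselves the correlation over the 8 arrays was -0.13 for UPM1 with SIRB, 0.35 for UPM1 with SIR and 0.57 for SIRB with SIR.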

How the data were processed

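Each of 8 RNA samples had its own Affymetrix ATH1 array. The deposited values are linear signal intensities, which the authors made with MAS5 and GCOS per the submitters' processing notes; target and versions are not given in the sources used. Trimmed by 2% at each end, every array has a mean of 100.01, so no further scaling was applied. Detection calls were not used.

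Without 64 control probe sets 22746 remained, and 13647 with a mean signal over the 8 arrays above the 40th percentile (33.3) were tested, the 3 genes among them. Tests were run on log2(signal + 16) by limma 3.58.1 under R 4.3.3: lmFit on the 4 group means of the 8 arrays, then eBayes with trend (residual degrees of freedom 4, prior 4.34). Tests were two-sided, with Benjamini-Hochberg adjustment across the tested probe sets and a threshold of 0.05. The fit was tested on simulated data. Permutation tests were exact. Figures used matplotlib 3.10.9.

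Probe sets were matched to genes by the probe table, updated to TAIR10.1 records (13513 probe sets with 1 gene, 503 with several, 8730 with none), except for UPM1. For AT5G41670, AT1G68670 and AT1G25550 these sources gave only the locus, and the names PGD3, HHO2 and HHO3 were added. The text names the 3 genes, up to 2 tested genes per pathway list by the smallest p in roots, and the 5 genes most like each of the 3. The organ markers, ICL and PORB were named besides these. Members and lists were chosen with earlier results of these data known. Alternatives covered the pseudocount, quantile normalization, the filter, the eBayes options, replicate blocks, fewer arrays and each array left out.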

Additional observations from a re-analysis of the deposited data

How the results depend on the processing

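Over 18 results on the 3 genes and 289 alternative values, 271 kept their direction and their side of the threshold. For UPM1 minus SIRB (8 of these values in roots, 8 in shoots and 12 over both organs) only the direction could change. The exact permutation test cannot give a p under 0.05 there, so those values could not cross the threshold. UPM1 rose with nitrate in roots under all 18 alternatives (log2 change 3.34 to 3.98; 3.68 to 3.91 with an array left out; limma, adjusted p up to 0.0107). In shoots it passed under 17 of 18 (2.75 to 3.77 and 3.11 to 3.75) and missed when fitted on the shoot arrays alone (3.43, adjusted p = 0.0788), as did 2 KCl organ differences with only the KCl arrays: UPM1 (0.78, 0.0573) and SIRB (-0.53, 0.0806). With an array left out, values ran from 0.46 to 1.10 for UPM1, from -0.68 to -0.38 for SIRB and from -0.77 to -0.46 for SIR between organs in KCl, from -0.81 to -0.71 for SIRB between organs after nitrate, from -0.100 to 0.0053 for SIRB with nitrate in roots, and from -0.074 to 0.23 for SIR with nitrate in shoots; the last 2 changed sign, and neither passed. Of other changes that did not pass, UPM1 in roots minus shoots ran from 0.045 to 0.68, SIRB in roots minus shoots from -0.39 to -0.078, SIR in roots minus shoots from 0.32 to 0.62 and SIRB with nitrate in shoots from 0.031 to 0.34. UPM1 minus SIRB with nitrate ran from 3.38 to 4.03 in roots and from 2.60 to 3.57 in shoots.

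The labels do not say what a replicate number marks, and with 2 numbers the arrays were not taken as pairs. Deviations of same-numbered arrays correlated at 0.441 between root groups, at 0.665 between shoot groups and at 0.207 to 0.393 between root and shoot groups. With a replicate block within each organ SIR passed in roots (log2 change 0.55; limma, adjusted p = 0.0264), 1 more call among the 3 genes. The number of probe sets called was 155 in roots, 13 in shoots and 2 for the difference of responses. It was 517, 82 and 80 with that block, 264, 36 and 6 under a replicate block that both organs shared, 279 in roots and 1 in shoots with only those arrays, and 20 for the difference at a pseudocount of 64. With an array left out it ran from 32 to 180, from 7 to 25 and from 0 to 1.

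Among the other pathway genes, none of which passed with nitrate under any alternative, ATPS4 in roots became -0.011 with quantile normalization. With an array left out the root change ran from -0.22 to 0.28 for HEMA2, from -0.0071 to 0.052 for HEMB1, from -0.055 to 0.16 for ATPS3, from -0.42 to 0.088 for HEME2 and from -0.32 to -0.025 for CHLI2, which stood at -1.01 with a pseudocount of 1. The cause of these shifts was not tested. A fit on fewer arrays has fewer degrees of freedom.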
